A study of Mus musculus with 30 samples.

Results

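The skin's outer cell fates are set by a small circle of transcription factors, and 9 of them were followed here in the preputial gland of the mouse, a paired sebaceous gland that empties through a squamous duct. The 9 regulators were Trp63, Notch1, Klf4, Grhl3, Ovol1, Gata3, Sox9, Prdm1 and Zfp750. They were taken by name from a list of squamous and sebaceous fate regulators, which was drawn up with earlier results of these data known, and each had 1 probe set among the 18784 genes measured. All 9 also passed the filter on low values that was tried as an alternative. The 30 arrays came from male mice on the B6 background in 15 groups of 2 mice, formed by 3 genotypes and 5 times. Mice were either wild type (WT), knocked out for Cyp1a1 (KO) or knocked out for both Cyp1a1 and Cyp1b1 (DKO), genes for P450 enzymes that oxidise benzo[a]pyrene (BaP), a carcinogen of soot and smoke. BaP was given in food at about 12.5 mg per kg per day from 6 weeks of age, and glands were taken at weeks 0, 4, 8, 12 and 16 of the diet. The labels do not say which part of either gene was deleted or in which cells, nor whether mice of a group were littermates. The study followed squamous cell carcinoma forming in the duct, and the design compares the genotypes with one another and the weeks within each.

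As background, stratified epithelium renews from a basal layer that p63, the product of Trp63, maintains, and Notch1 is the receptor through which basal cells receive the signal to leave it. Klf4, Grhl3, Ovol1 and Zfp750 act in the layers above: Klf4 and Grhl3 are needed for the barrier, Ovol1 restrains proliferation as cells differentiate, and Zfp750 is a p63 target that turns on late differentiation genes. Gata3 acts in the inner root sheath and in epidermal lipid synthesis. Sox9 marks the progenitors of the hair follicle outer root sheath and its attached sebaceous gland. Prdm1, which encodes the repressor Blimp1, has been placed both in sebaceous gland cells and in the granular layer of epidermis, and it is also a regulator of plasma cells and T cells.

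The promoters of 5 of the 9 regulators were matched by symbol in RefSeq promoter tables of build GRCm38.p6. Klf4 was called higher in DKO than in WT on the deposited values and after quantile normalization, and Grhl3 only after quantile normalization. Prdm1 was called lower on the deposited values and not after quantile normalization. Grhl3 and Prdm1 were thus not called in opposite directions on the same scale. The promoters of these 3 genes are shown. Each is the 250 bases before the start of the gene, 5′ to 3′ on the gene's own strand, which is the minus strand for all 3. They lie at chr4:55532476-55532725 (Klf4), chr4:135573633-135573882 (Grhl3) and chr10:44458749-44458998 (Prdm1). Capitals mark the core letters of the aryl hydrocarbon receptor (AhR) element, GCGTG, and of the KLF box, CACCC, each searched on both strands. AhR is the receptor that BaP activates.
Klf4: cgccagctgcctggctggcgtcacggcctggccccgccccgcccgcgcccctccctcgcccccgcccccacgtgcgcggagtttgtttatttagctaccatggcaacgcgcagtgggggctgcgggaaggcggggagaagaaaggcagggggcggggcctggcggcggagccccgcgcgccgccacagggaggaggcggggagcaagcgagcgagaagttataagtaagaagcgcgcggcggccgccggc
Grhl3: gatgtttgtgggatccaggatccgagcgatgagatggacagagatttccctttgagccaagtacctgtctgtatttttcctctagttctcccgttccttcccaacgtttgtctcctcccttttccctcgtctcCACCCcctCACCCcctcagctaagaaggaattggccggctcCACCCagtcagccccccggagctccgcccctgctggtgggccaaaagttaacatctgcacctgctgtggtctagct
Prdm1: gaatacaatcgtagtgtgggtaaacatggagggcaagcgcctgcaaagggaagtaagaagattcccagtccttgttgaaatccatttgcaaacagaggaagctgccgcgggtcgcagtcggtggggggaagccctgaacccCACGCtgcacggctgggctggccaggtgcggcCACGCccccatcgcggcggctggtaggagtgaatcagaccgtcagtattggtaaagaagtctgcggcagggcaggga
The Klf4 window held neither set of letters. The Grhl3 window held 3 KLF boxes and no AhR core, and the Prdm1 window held 2 AhR cores and no KLF box. Among the windows not shown, Gata3 held 3 KLF boxes and Notch1 held 1, and neither held an AhR core. Both of these genes were called lower in DKO on the deposited values. Of 27025 promoter windows of this length, 28% held the AhR core and 51.3% held the KLF box, so a match in one window is a description of its letters only. No window among the 5 held the RBPJ letters GTGGGAA (5.45% of all windows), the GATA letters AGATAA (10.2%) or the GRHL letters AACCNGTT (1.67%).

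The arrays were not alike, and this touches every comparison with DKO. In 9 arrays the deposited log2 values spanned a narrow range, with a standard deviation over all genes of 1.15 to 1.42 against 1.70 to 2.08 in the other 21. These narrow-range arrays were 8 of the 10 labelled DKO and replicate 2 of KO week 12. The number written in each array's label fell in 1 to 20 for all 10 WT, 9 KO and 1 DKO array and in 22 to 33 for the remaining 1 KO and 9 DKO arrays, so this number and the DKO genotype can hardly be told apart. What the number stands for is not stated. When genes were sorted into 4 equal bins by their mean level in WT, the median difference of DKO from WT ran from 1.07 and 0.48 in the 2 lower bins to -0.27 and -1.10 in bins 3 and 4. In the median, genes low in WT thus stood higher in DKO and genes high in WT stood lower, though single genes departed from their bin. Notch1, Klf4, Grhl3 and Ovol1 lay in bin 3, and Trp63, Gata3, Sox9, Prdm1 and Zfp750 lay in bin 4. Quantile normalization, which gives all arrays the same distribution, and percentile ranks within an array are therefore given beside the deposited values.

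**Figure D1:**
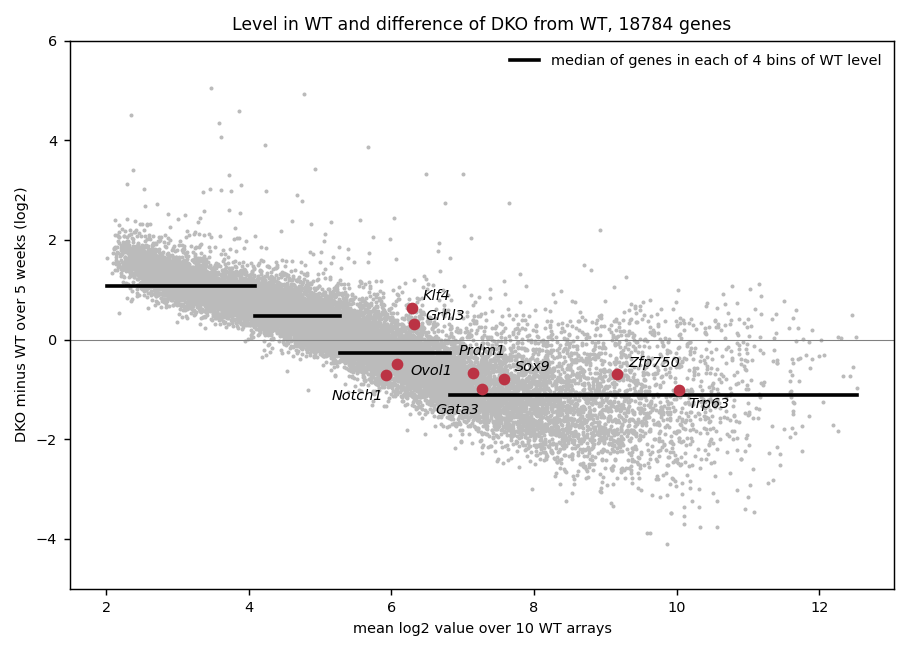
Mean log2 value over 10 WT arrays (horizontal axis) and DKO minus WT difference over 5 weeks in log2 (vertical axis) for 18784 genes in grey, with the 9 regulators in red and the median of each of 4 bins of WT level as a black line. Klf4 at 0.64 and Grhl3 at 0.32 sit above the median of their bin (-0.27), while Notch1 at -0.71 sits below it.

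The labels were checked against the tissue and against the targeted genes. Sebocyte markers, 12 of which were measured, had a mean log2 value of 8.10 to 8.37 over the 10 WT arrays, 7.36 to 8.15 in KO and 5.90 to 7.55 in DKO. Cyp1a1 lay between 3.67 and 6.14 in all 30 arrays. Cyp1b1 reached 9.48 to 10.57 in the 8 DKO arrays of weeks 4 to 16, against 6.17 to 6.77 in WT and 7.71 to 8.82 in KO. At week 0 Cyp1b1 read 6.66 to 6.69 in KO and 7.48 to 8.74 in DKO. Which exons were deleted and which the probe sets cover is not stated in the labels, so neither level checks the genotype, and DKO below means the arrays labelled DKO.

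Between DKO and WT, averaged over the 5 weeks, 8 of the 9 regulators were called different by limma on the deposited values: Klf4 was higher and Trp63, Gata3, Sox9, Notch1, Zfp750, Prdm1 and Ovol1 were lower. Called means an adjusted p below 0.05. The same test called 74.6% of all 18784 genes, 43.6% higher and 31% lower, so the count of 8 is close to the background. After quantile normalization 3 of the 9 were called (36.6% of all genes), Klf4 and Grhl3 as higher and Notch1 as lower. The all-gene median difference was 0.20 on the deposited values and 0.06 after quantile normalization. The named values below are given in the order of the genes' roles, from the suprabasal factors to those of the appendages.

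Klf4, a zinc finger factor of the suprabasal layers, had the following log2 values. In WT its pairs of arrays read 6.19 and 5.72 at week 0, 6.05 and 6.70 at week 4, 6.19 and 6.52 at week 8, 5.72 and 6.67 at week 12, and 6.55 and 6.52 at week 16. In KO they read 6.30 and 6.37, 6.40 and 6.08, 6.22 and 6.53, 6.44 and 6.92, and 6.97 and 6.38. In DKO they read 6.72 and 6.62, 6.98 and 6.92, 7.11 and 7.13, 6.55 and 6.81, and 7.20 and 7.22. The DKO arrays of weeks 4, 8 and 16 lay above every WT array, and those of weeks 0 and 12 overlapped with the highest WT values. Klf4 exceeded WT by 0.64 ± 0.15 log2 (SE, 10 arrays each, adjusted p = 0.000524 by limma), a 1.56-fold difference, and after quantile normalization by 1.39 ± 0.18 (adjusted p = 6.25e-06). Within single arrays Klf4 stood at the 76.1 to 93.3 percentile of all genes in DKO against 58.6 to 73.6 in WT and 64.1 to 87.3 in KO. The KO value of 87.3 came from the narrow-range KO array, and the other KO arrays reached 79.6. The 2 DKO arrays of normal range stood at 76.1 and 78.9, inside that KO range, and the narrow-range DKO arrays at 82.6 to 93.3. All 10 DKO arrays ranked Klf4 above all 10 WT arrays, which held for 1 of the 9 regulators and for 1.72% of all genes. The 2 DKO arrays of normal range, week 0 replicate 1 and week 12 replicate 2, read 6.72 and 6.81. The WT arrays read 5.72 to 6.70 and the normal-range KO arrays 6.08 to 6.97, so both DKO values lay inside the KO range.

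Grhl3, a grainyhead-like factor of barrier formation and wound closure, showed its higher DKO values at weeks 4 to 12. WT arrays read 6.05 and 6.09 at week 0, 6.03 and 6.25 at week 4, 6.62 and 6.46 at week 8, 6.16 and 6.83 at week 12, and 6.39 and 6.33 at week 16. KO arrays read 5.92 and 5.83, 6.14 and 6.24, 6.05 and 6.32, 6.24 and 5.39, and 6.19 and 6.30. DKO arrays read 5.96 and 6.16, 6.30 and 7.50, 6.77 and 6.79, 7.08 and 7.23, and 6.06 and 6.57. At week 0 the DKO pair lay at the WT level, at weeks 4, 8 and 12 both DKO arrays lay above both WT arrays of the same week, and at week 16 the pairs overlapped. Of all genes, 26.1% likewise had DKO pairs above the WT pairs at weeks 4, 8 and 12. On the deposited values Grhl3 differed from WT by 0.32 ± 0.15 log2 (SE, adjusted p = 0.0671 by limma) and was not called, and after quantile normalization by 0.94 ± 0.18 (adjusted p = 0.000332). Its median percentile within arrays was 83.4 in DKO, 67.5 in WT and 66.6 in KO.

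Notch1, the receptor, was the only regulator called lower on both scales. Its log2 values ranged from 5.22 to 6.21 in WT (median 6.10), from 4.91 to 6.04 in KO (median 5.83) and from 4.15 to 5.76 in DKO (median 5.26). The lowest reading was DKO week 8 replicate 2, whose partner at 5.76 was the highest DKO value, so 1 pair spanned the whole DKO range. The 2 DKO arrays of normal range read 5.23 and 5.47, both inside the range of the WT arrays and that of the normal-range KO arrays. The difference from WT was -0.71 ± 0.18 log2 (SE, 10 arrays each, adjusted p = 0.00163 by limma) on the deposited values and -0.82 ± 0.24 (adjusted p = 0.00962) after quantile normalization. Within arrays Notch1 had a median percentile of 64.3 in WT, 61.0 in KO and 45.4 in DKO, with a DKO range from 8.1 to 63.1.

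Trp63, the basal layer's master regulator, and Zfp750, its late target, were lower in DKO by amounts like those of other bright genes. Trp63 read 9.54 to 10.32 in WT (median 10.11), 8.74 to 9.94 in KO (median 9.63) and 7.40 to 9.69 in DKO (median 9.14). It differed from WT by -1.005 ± 0.19 log2 (SE, adjusted p = 9.75e-05 by limma) on the deposited values, and by -0.27 ± 0.17 after quantile normalization, where it was not called. Its percentile within arrays had a median of 98.1 in WT, 97.1 in KO and 97.4 in DKO. Zfp750 read 8.25 to 9.59 in WT (median 9.30), 7.98 to 9.33 in KO (median 9.04) and 6.41 to 9.22 in DKO (median 8.70). Its difference of -0.70 ± 0.23 (adjusted p = 0.00953) turned to 0.13 ± 0.22 after quantile normalization. The lowest value of both genes was the same array, DKO week 16 replicate 1.

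Ovol1, a zinc finger repressor of proliferation, read 5.51 to 6.55 in WT, 4.98 to 6.09 in KO and 4.83 to 6.03 in DKO. It differed between DKO and WT by -0.49 ± 0.16 log2 (SE, adjusted p = 0.00858 by limma), and by -0.36 ± 0.18 after quantile normalization, where it was not called. The ranges of the 3 genotypes overlapped over most of their length, and the week 16 pair of DKO, 5.87 and 6.03, lay just below the WT pair, 6.19 and 6.14.

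The 3 regulators tied to appendages and sebaceous cells, Gata3, Sox9 and Prdm1, were also called lower in DKO on the deposited values and not after quantile normalization. Gata3 read 7.49 and 7.28, 7.79 and 7.37, 7.41 and 7.53, 6.41 and 6.77, and 7.34 and 7.28 in the WT pairs from week 0 to week 16. It read 6.64 and 6.70, 6.70 and 6.43, 7.22 and 7.10, 6.49 and 6.31, and 6.66 and 6.92 in KO, and 6.72 and 5.89, 6.82 and 6.30, 6.44 and 5.87, 5.40 and 7.21, and 6.07 and 6.10 in DKO. Except at week 12, every WT array lay above every KO and DKO array of its week. That held for 4.69% of all genes in KO and for 14.9% in DKO, and for 2 and 5 of the 9 regulators. The DKO difference was -0.99 ± 0.18 log2 (SE, adjusted p = 7.28e-05 by limma) and -0.41 ± 0.21 after quantile normalization. Sox9 was the most variable in DKO, from 5.31 to 7.80 (SD 0.84) against 7.10 to 7.94 (SD 0.26) in WT and 7.31 to 7.79 (SD 0.13) in KO. It differed from WT by -0.78 ± 0.24 (adjusted p = 0.00575), and by -0.084 ± 0.30 after quantile normalization. Prdm1 read 6.88 to 7.58 in WT, 6.20 to 7.27 in KO and 6.01 to 6.98 in DKO, a difference of -0.68 ± 0.16 (adjusted p = 0.000575). In percentile terms its median was 78.0 in WT and 79.9 in DKO.

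No regulator had DKO and WT values that failed to overlap over the 10 arrays of each, whereas 17.7% of all genes did. With the range of label numbers as a block, no regulator was called between DKO and WT (0.852% of all genes were), and Klf4 differed by 0.47 ± 0.32 (adjusted p = 0.543 by limma). Without the 9 narrow-range arrays, which leaves 1 DKO array at week 0 and 1 at week 12, 1 regulator was called, Klf4 at 0.69 ± 0.26 (adjusted p = 0.0471, 39.5% of all genes called).

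**Figure D2:**
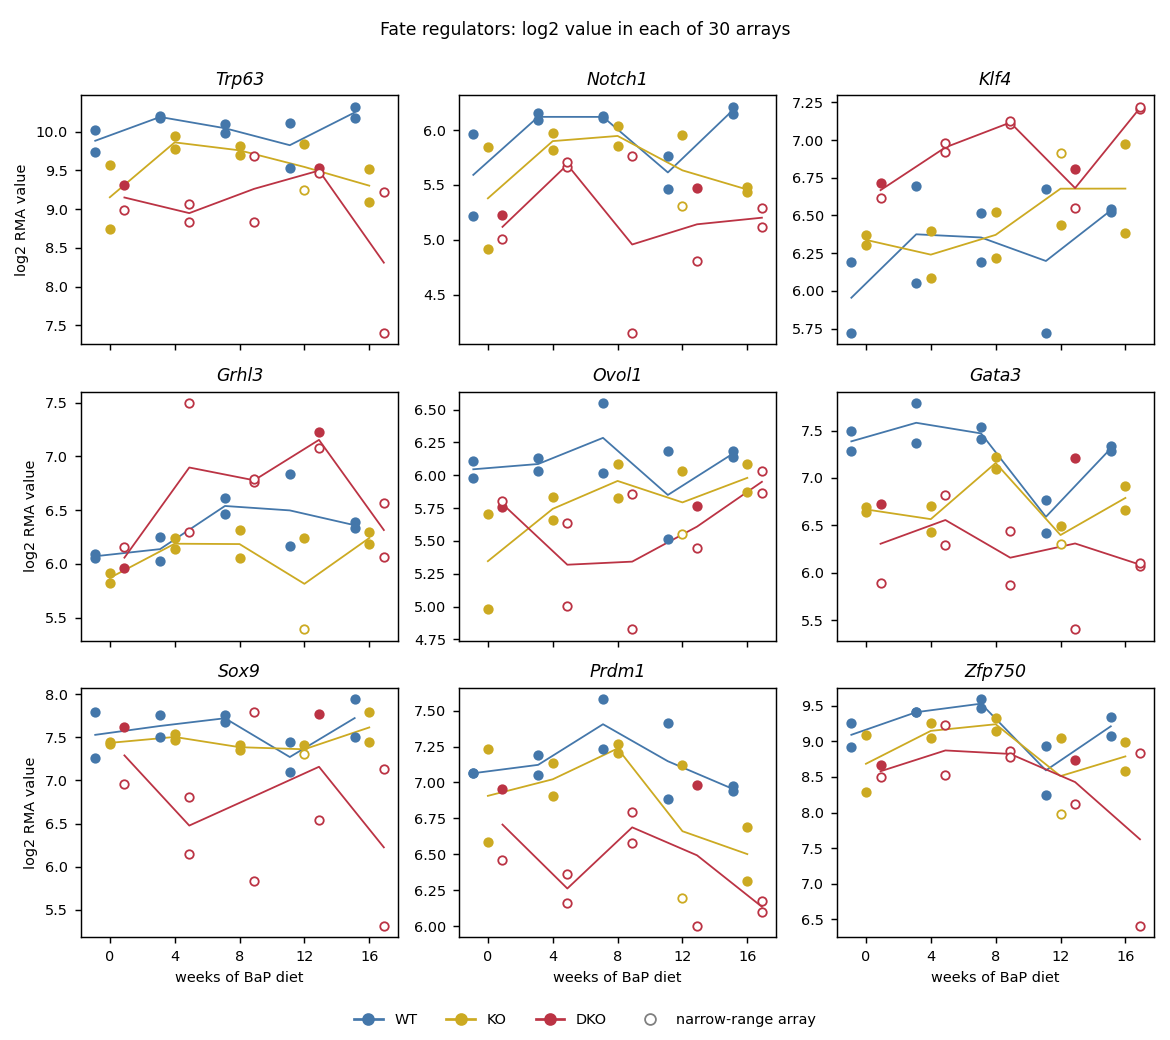
Deposited log2 value (vertical axis, a separate scale for each gene) of the 9 regulators in each of 30 arrays by weeks of BaP diet (horizontal axis, genotypes offset to the sides of each week), with open circles for narrow-range arrays and lines through the means of the pairs. Klf4 in DKO runs from 6.55 to 7.22 and Grhl3 in DKO peaks at weeks 4 to 12, while Trp63 and Zfp750 have their lowest point in the same DKO array of week 16 (7.40 and 6.41).

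**Figure D3:**
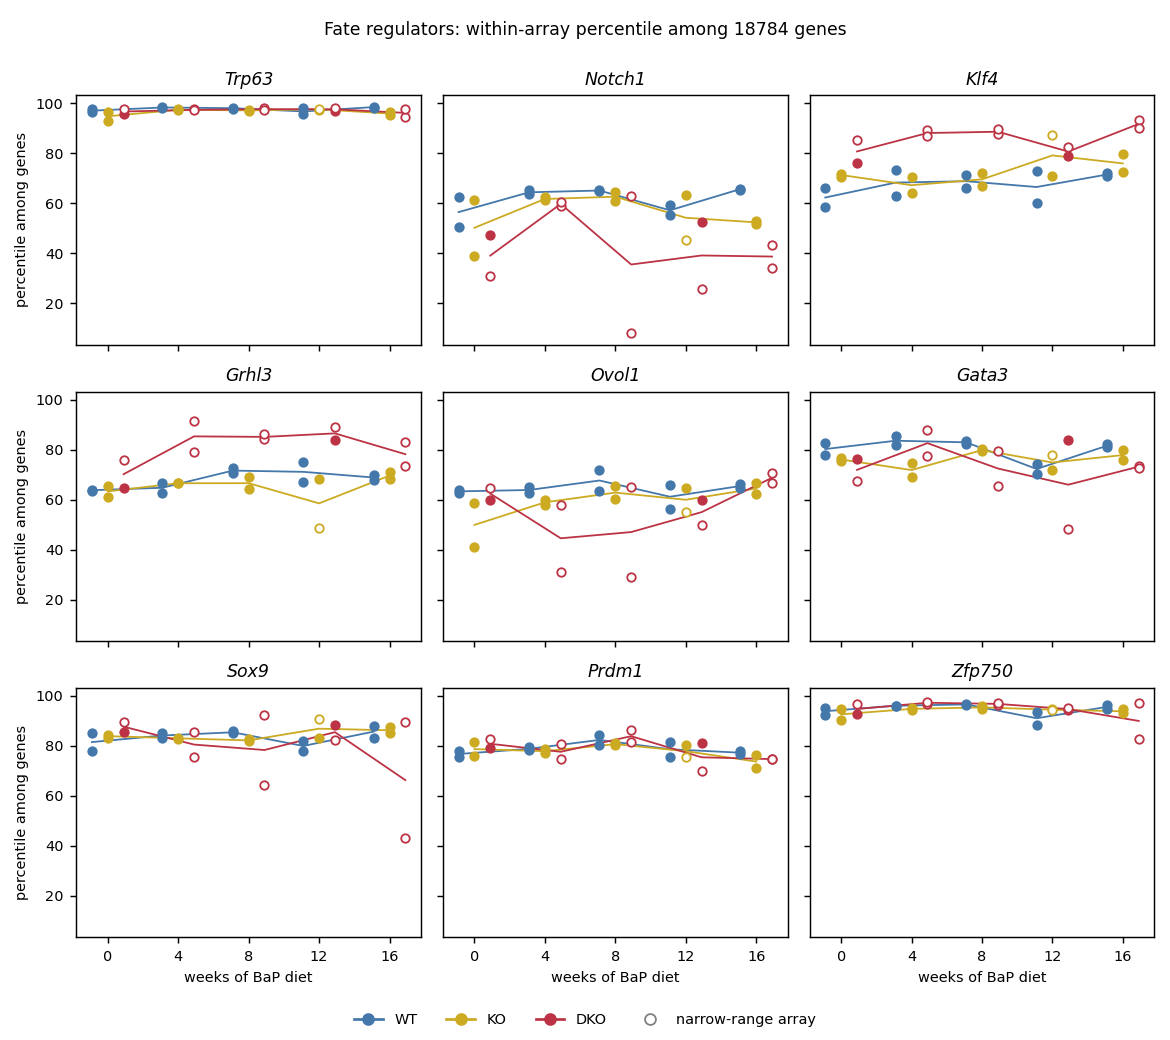
Percentile of each regulator among 18784 genes of the same array (vertical axis) by weeks of BaP diet (horizontal axis), with the same symbols for genotype and narrow-range arrays. On this scale the DKO arrays lie above WT for Klf4 (76.1 to 93.3 against 58.6 to 73.6) and extend below WT for Notch1 (from 8.1), while Trp63, Prdm1 and Zfp750 have like medians in all 3 genotypes. For Klf4 the DKO arrays of normal range stand at 76.1 and 78.9.

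Between the arrays labelled DKO and KO, which by their labels differ in Cyp1b1, Klf4 and Grhl3 were again the higher pair. Grhl3 exceeded KO by 0.58 ± 0.15 log2 (SE, 10 arrays each, adjusted p = 0.00340 by limma) and Klf4 by 0.46 ± 0.15 (adjusted p = 0.00991). Sox9 (-0.67 ± 0.24), Trp63 (-0.49 ± 0.19), Notch1 (-0.44 ± 0.18), Gata3 (-0.43 ± 0.18) and Prdm1 (-0.41 ± 0.16) were called lower, with adjusted p from 0.0209 to 0.0457. Zfp750 (-0.41 ± 0.23) and Ovol1 (-0.16 ± 0.16) were not called. That made 7 of 9, against 59.8% of all genes (34% higher and 25.8% lower). After quantile normalization 2 of 9 were called (25.9% of all genes), Grhl3 at 1.09 ± 0.18 (adjusted p = 0.000196) and Klf4 at 1.07 ± 0.17 (adjusted p = 0.000232). The calls of Grhl3 and Klf4 held when any single array was left out, whereas the 5 lower calls did not: leaving out any 1 of 9 arrays brought the total down to 2 to 4. With the label number block, 0 of 9 were called (0.218% of all genes) and Grhl3 differed by 0.84 ± 0.30. Without the narrow-range arrays 0 of 9 were called (9.86% of all genes). The comparisons with WT and with KO share the DKO arrays.

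**Figure D4:**
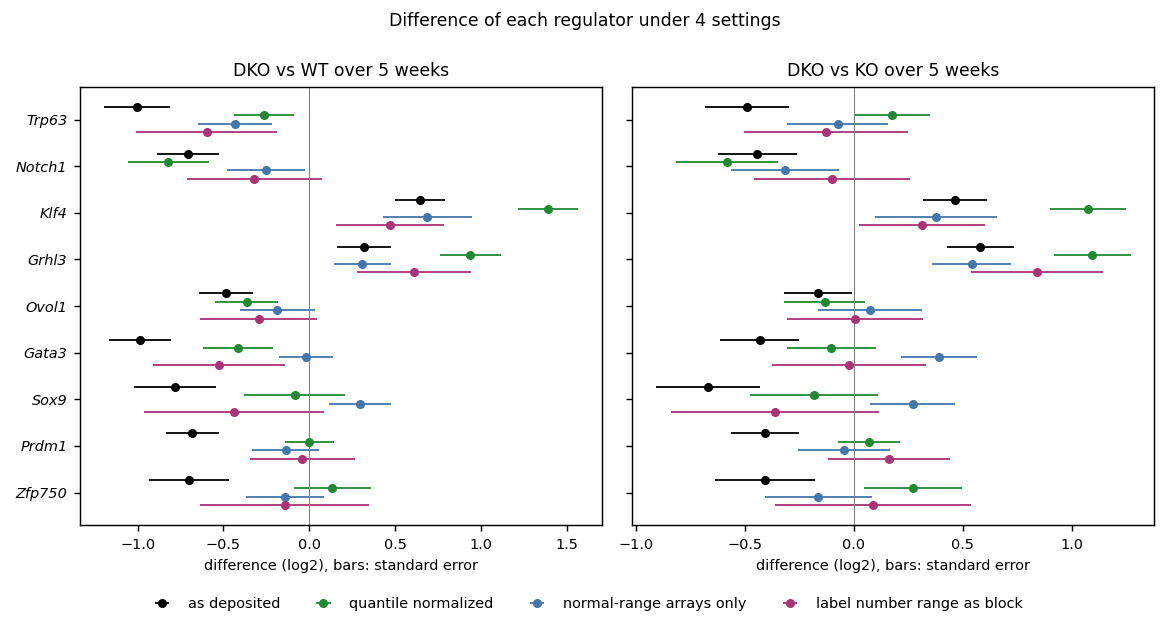
Difference of DKO from WT (left) and from KO (right) in log2, with the standard error as a bar, for the 9 regulators on the deposited values, after quantile normalization, in the normal-range arrays alone and with the label number range as a block. Klf4 and Grhl3 stay to the right of 0 in all 4 settings in both panels, and Sox9 in the left panel moves from -0.78 to 0.30.

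Between KO and WT no regulator was called on the deposited values (0 of 9, against 4.33% of all genes), and the largest differences were those of Gata3 and Trp63. Gata3 was -0.55 ± 0.18 log2 (SE, 10 arrays each, adjusted p = 0.0938 by limma) and Trp63 was -0.51 ± 0.19 (adjusted p = 0.146). Both passed an unadjusted p under 0.05, as did 19.8% of all genes. Leaving out all 9 narrow-range arrays, of which 1 is KO, gave -0.53 ± 0.09 for Gata3 (adjusted p = 0.000642) and -0.46 ± 0.12 for Trp63 (adjusted p = 0.0122), with 26% of all genes called. The 8 Gata3 arrays of KO at weeks 0, 4, 8 and 16 all lay below the WT arrays of the same week, which 4.69% of all genes also did. At week 0, before any BaP, Gata3 was 6.64 and 6.70 in KO against 7.49 and 7.28 in WT, a difference of -0.72 ± 0.41 (adjusted p = 0.759) that was not called in the fit of all arrays (0% of all genes were, and 6.88% had an unadjusted p under 0.05). It was called without the narrow-range arrays (adjusted p = 0.0224), as were 15.6% of all genes. The remaining 7 regulators differed between KO and WT by -0.32 to 0.18.

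At week 0 the DKO glands had not yet met BaP, and no regulator was called against WT (0 of 9, 3.9% of all genes). The values nearest to a call were Gata3 at -1.08 ± 0.41 log2 (SE, 2 arrays each, adjusted p = 0.0977 by limma) and Klf4 at 0.71 ± 0.33 (adjusted p = 0.145), the 2 regulators with an unadjusted p under 0.05, which 31.3% of all genes had. Grhl3 stood at -0.013 ± 0.35. Gata3 was called when DKO week 0 replicate 1, an array of normal range, was left out, a fit that called 39.6% of all genes. Against KO at week 0 no regulator and no gene at all was called (0% of all genes), while 8.52% of genes passed an unadjusted p under 0.05. For these pairs 1 of the 2 DKO arrays was of narrow range.

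Over the weeks of BaP no regulator was called within any genotype. Week 0 mice were also the only mice without BaP and the youngest, so exposure and age cannot be told apart. In DKO, Grhl3 had the largest difference between weeks 4 to 16 and week 0, 0.73 ± 0.27 log2 (SE, 8 against 2 arrays, adjusted p = 0.188 by limma), followed by Sox9 at -0.62 ± 0.42 (adjusted p = 0.481), and Klf4 was 0.32 ± 0.26 (adjusted p = 0.558). The same comparison called 0.974% of all genes, and 16.2% had an unadjusted p under 0.05, Grhl3 among them. Between the 2 normal-range DKO arrays Grhl3 read 5.96 at week 0 and 7.23 at week 12, a difference of 1.27 ± 0.27 that was called (adjusted p = 0.0106, 7.89% of all genes) with 1 array at each time and the spread borrowed from the other groups. At week 16 alone, DKO differed from its week 0 by -1.07 for Sox9, -0.95 for Zfp750 and -0.84 for Trp63, none of them called (0 of 9, 4.04% of all genes) or under an unadjusted p of 0.05 (22.1% of all genes). All 3 were called when DKO week 16 replicate 2 was left out, as were 10.4% of all genes. That fit rests on replicate 1 alone, the array with the lowest Trp63 and Zfp750 values, and takes its spread from the other groups. In WT, differences between weeks 4 to 16 and week 0 ran from -0.15 (Gata3) to 0.42 (Notch1), and in KO from -0.052 (Prdm1) to 0.52 (Ovol1), with no gene called in either (0% of all genes) and 0.82% and 1.37% at an unadjusted p under 0.05. At week 16 alone no gene was called in WT or KO, and 1.21% and 1.16% had an unadjusted p under 0.05. The difference in change between DKO and WT was called for no regulator (0.0373% of all genes), and it was 0.42 ± 0.39 for Grhl3 and -0.088 ± 0.36 for Klf4. Without the narrow-range arrays, with 1 DKO array at each time, it was called for 1 regulator, Gata3 (1.29 ± 0.32, adjusted p = 0.0415), and for 3.02% of all genes. Between DKO and KO it was 0.49 ± 0.39 for Grhl3 and -0.75 ± 0.39 for Ovol1 (0 of 9, 0.0426% of all genes). For the differences in change of KO against WT, DKO against WT and DKO against KO, no regulator had an unadjusted p under 0.05, against 0.538%, 4.74% and 7.3% of all genes.

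When the 15 group means of a gene were put in order, Klf4 was highest in DKO at weeks 16 (7.21), 8 (7.12) and 4 (6.95) and lowest in WT at week 0 (5.95). Grhl3 was highest in DKO at weeks 12 (7.15), 4 (6.90) and 8 (6.78) and lowest in KO at week 12 (5.82). Trp63 ran from 10.25 in WT at week 16 to 8.31 in DKO at week 16, Notch1 from 6.18 in WT at week 16 to 4.96 in DKO at week 8, and Gata3 from 7.58 in WT at week 4 to 6.09 in DKO at week 16. Neighbours in these orders differed by less than the pooled SD of the pairs for all 9 genes with 2 exceptions, both the step down to DKO week 16: Trp63 (from 8.95 to 8.31, pooled SD 0.44) and Zfp750 (from 8.43 to 7.63, pooled SD 0.56). The median SD of the 9 regulators within a genotype was 0.26 in WT, 0.33 in KO and 0.52 in DKO, beside 0.19, 0.36 and 0.56 over all genes.

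Genes that followed the regulators most closely across arrays differed from gene to gene. Over the 30 arrays, which share the narrow-range split, Klf4 was closest to Dusp10 (r = 0.85), a phosphatase of the p38 and JNK kinases, to the ribonuclease gene Ang3 (0.84) and to the protease gene Mmp11 (0.84). Grhl3 was closest to the T cell gene Cd2 (0.79), and Trp63 to the chromatin remodeller gene Smarca4 (0.95). Over the 19 WT and KO arrays of normal range the closest genes were others: Lrrk1 for Klf4 (0.84), Arc, Epha2 and Car9 for Grhl3 (0.86, 0.84 and 0.76), Ly6e for Trp63 (0.98), Ubr4 for Notch1 (0.96) and Nfib for Zfp750 (0.95). Gata3 was closest to Casz1 over 30 arrays (0.86) and to Rxra over the 19 (0.90). Among the regulators themselves, in the 19 arrays, Trp63 and Notch1 had r = 0.85, Notch1 and Zfp750 0.84 and Trp63 and Zfp750 0.78, while Klf4 had 0.12 with Trp63 and 0.34 with Grhl3.

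The wider Notch pathway, with 22 measured genes, had 7 genes called higher and 5 lower in DKO than in WT (median 0.074 against 0.20 for all genes), a smaller share in each direction than the 43.6% and 31% of all genes. After quantile normalization the counts were 4 and 2, against 18.2% of all genes higher and 18.4% lower. Rbpj, the DNA-binding partner of the Notch intracellular domain, was higher in DKO than in WT by 1.11 ± 0.17 log2 (SE, adjusted p = 1.12e-05 by limma) and by 1.44 ± 0.18 after quantile normalization. The target gene Hey2 was also higher (1.26 ± 0.17), but its level in WT was low, in bin 1, where the median difference of all genes was 1.07. Numb, an inhibitor of Notch (-1.44 ± 0.20), and Ncstn, a subunit of gamma-secretase (-1.66 ± 0.26), were lower on both scales. Against week 0, no Notch pathway gene was called in DKO over weeks 4 to 16 (1 without the narrow-range arrays, Adam17), and Rbpj and Hey2 were called higher at week 16 alone, on the deposited values and after quantile normalization.

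Other keratinocyte transcription factors, 34 of them measured, split into 9 called higher and 13 lower in DKO against WT (median -0.014). After quantile normalization the split was 10 and 4. All genes stood at 43.6% higher and 31% lower on the deposited values, and at 18.2% and 18.4% after quantile normalization. Cebpb, which acts in the suprabasal layers, was higher in DKO than in WT by 1.02 ± 0.16 log2 (SE, adjusted p = 1.08e-05 by limma). Pparg, the lipid regulator of sebocytes, was lower by 1.66 ± 0.24 and Tfap2b by 1.69 ± 0.16, and both kept their calls after quantile normalization. Sox2 was higher by 1.61 ± 0.16 than its mean of 2.80 in WT, which is in bin 1, where the median difference was 1.07. In DKO over weeks 4 to 16, 1 of the 34 was called on the deposited values, against 0.974% of all genes. It was Tfap2b (-1.22 ± 0.28, adjusted p = 0.0358 by limma), a call lost in 9 of 21 alternatives. After quantile normalization Tfap2b was called lower and Barx2, Klf5 and Runx1 higher, with 2.2% of all genes called. Between KO and WT, the nuclear receptor genes Rxra (-0.66 ± 0.18) and Vdr (-0.72 ± 0.20) were called lower on the deposited values. So were 3.94% of all genes. Each of these 2 calls was lost in 17 of 31 alternatives, quantile normalization among them.

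The lists of the layers in which these regulators act differed in their counts. Of all genes, 43.6% were called higher and 31% lower in DKO than in WT, and 18.2% and 18.4% after quantile normalization. Of 26 measured genes of differentiation and cornification, 19 were called higher and 1 lower in DKO than in WT (median 1.29), and 21 and 0 after quantile normalization. The suprabasal keratin genes Krt1 (4.60 ± 0.22) and Krt10 (2.74 ± 0.17) led them. In DKO over weeks 4 to 16 Krt1 rose by 4.43 ± 0.39, and 10 of the 26 were called, against 0.974% of all genes. Of 16 measured genes of the basal keratinocyte list, 2 were called higher and 7 lower in DKO than in WT, and 4 and 3 after quantile normalization. That list also holds the stress keratin genes Krt6a, Krt6b, Krt16 and Krt17. Its 7 basal markers (Krt5, Krt14, Krt15, Col17a1, Itgb4, Itga6 and Dst) had a mean log2 value of 8.21 in WT. This mean was 7.81 in KO and 7.19 in DKO, and 4 of the 7 lay in bin 4 and 3 in bin 3. Krt14 (-1.30 ± 0.17), Krt5 (-1.15 ± 0.19) and Krt15 (-2.07 ± 0.27) were lower, and the stress keratin gene Krt6b was higher (2.97 ± 0.38). The basal median of -0.26 was near the -0.27 of bin 3, which held 6 of the 16, while 8 lay in bin 4 (-1.10). Of 22 measured sebaceous genes, 4 were called higher and 13 lower in DKO than in WT (median -1.11), and 2 and 13 after quantile normalization. On the deposited values the sebaceous median was near the -1.10 of bin 4, in which 17 of the 22 lie. Mc5r, the sebocyte melanocortin receptor, fell by 2.53 ± 0.20, and Dgat1, which makes triglyceride, fell by 2.67 ± 0.22. In KO, 7 of the 22 sebaceous genes and 2 of the 16 basal genes were called lower than in WT, and 1 and 0 after quantile normalization. The 2 basal genes were Krt5 (-0.81 ± 0.19) and Krt14 (-0.67 ± 0.17). Of all genes, 3.94% were called lower in KO, and 0.49% after quantile normalization. With the label number block, 8 of the 26 cornification genes were called higher in DKO than in WT, against 0.852% of all genes called. No gene of the Notch, transcription factor, basal and sebaceous lists was called with it.

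Markers of other cells moved alongside the regulators in these whole glands, in which fewer cells of a type and less RNA per cell cannot be told apart. Counts here stand beside 43.6% of all genes higher and 31% lower in DKO than in WT on the deposited values, and 18.2% and 18.4% after quantile normalization. Of 12 measured sebocyte markers, 9 were called lower and 2 higher in DKO than in WT (8 and 0 after quantile normalization). In KO, 4 were called lower than in WT (1 after quantile normalization). In KO, 3.94% of all genes were called lower than in WT, and 0.49% after quantile normalization. Of 7 measured cornified-layer markers 5 were called higher in DKO than in WT (6 after quantile normalization), and their mean log2 value ran from 6.01 to 9.25 over DKO arrays against 5.32 to 5.99 in WT. Of 7 T cell markers, which include Cd2, the gene closest to Grhl3 over 30 arrays, 4 were called higher (3 after quantile normalization). The T cell median difference of 0.54 was near the 0.48 of bin 2, in which 4 of the 7 lie. All 5 measured plasma and B cell markers, 2 from bin 1 and 3 from bin 2, were called higher on the deposited values (median 0.77) and 2 after quantile normalization. Of 7 neutrophil markers 6 were called higher (3 after quantile normalization). The neutrophil median difference of 0.95 was near the 1.07 of bin 1, in which 4 of the 7 lie. Of 7 fibroblast markers 4 were called higher and 1 lower (4 and 0), of 5 skeletal muscle markers 3 higher (1), and of 5 macrophage markers 1 higher (3). Of 7 endothelial markers 4 were called lower and 1 higher (3 and 0), and of 3 adipocyte markers 1 was called lower (0). With the label number block 3 cornified-layer markers were called higher, against 0.852% of all genes called. No marker of the sebocyte, T cell, plasma and B cell, neutrophil, fibroblast, skeletal muscle, macrophage, endothelial or adipocyte lists was called with it. How much of any regulator's difference came with these cells was not tested.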

How the data were processed

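The members and the gene lists were chosen with earlier results of these data known. The authors deposited log2 values per probe set after RMA (background correction, quantile normalization and probe summary), which the submitters' processing notes name with no version. The genome build behind the probe sets is not given in the sources used here. Per the labels' protocols, total RNA went through whole-transcript amplification (Ovation Pico) and carried a biotin label, and amplification can change the range of signals. Of 21212 probe sets, 18786 carried 1 gene symbol, 6 carried more, and 2420 lacked an entry; the brightest probe set stood for a gene, which left 18784 genes. With arrays there is no read depth, and 2 arrays per group limit the precision. No 2 arrays held identical values.

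One model of 15 group means was fitted to the deposited log2 values in limma 3.58.1 under R 4.3.3 (residual degrees of freedom 15, prior 6.91), giving 15 comparisons, all two-sided, with Benjamini-Hochberg adjustment over all genes. The ± values are its standard errors unless SD is written. The labels do not say more of the mice than that they were separate, and each gene has 1 spread for all groups although DKO arrays varied more, so errors within WT are likely too large and errors within DKO too small. The fit was also run on simulated data. These had 1 spread per gene for all groups and no narrow-range arrays, so that run cannot test unequal spread or narrow range. Alternatives were quantile normalization, array medians, a filter on low values, trended and robust variances, array weights, only the groups compared, the replicate number and the label number as blocks, fits within label number ranges, fits without narrow-range arrays (SD under 1.5), the mean of a gene's probe sets, and each array left out.

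Named genes were the 9 regulators, from each list the 4 genes of lowest adjusted p at most, and the 3 genes most correlated with each regulator. The main model did not treat replicate numbers as pairs. Deviations of replicate 1 correlated at a median of -0.022 between groups (-0.55 to 0.67 over 105 pairs of groups). Such a median cannot exclude pairing between some groups.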

Additional observations from a re-analysis of the deposited data

Results flagged for a closer look

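Each regulator was examined for an array far from the others among the 8 arrays of a genotype at weeks 4 to 16, which made 27 groups. An array counted as far when its gap to the nearest other array, divided by the range of the 8, exceeded Dixon's 95% critical value, which by its construction chance passes in about 1 in 20 groups. In 4 groups there was one. Trp63 read 9.54 in WT week 12 replicate 1, below the other WT arrays on BaP. Trp63 read 7.40 and Zfp750 read 6.41 in DKO week 16 replicate 1, a narrow-range array, far below the other DKO arrays of both genes. Grhl3 read 5.39 in KO week 12 replicate 2, the narrow-range KO array.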

How the results depend on the processing

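The 8 calls between DKO and WT held whenever a single array was left out (8 to 9 called), and fell to 3 after quantile normalization, 1 without the narrow-range arrays and 0 both with the label number block and within label numbers 1 to 20. The 7 calls between DKO and KO became 2 each after quantile normalization, with array weights and with only the groups compared, and 0 with the label number block, within either range of label numbers and without the narrow-range arrays; leaving out single arrays gave 2 to 7, with 2 to 4 called without replicate 2 of KO weeks 0, 4 and 8, replicate 1 of KO weeks 12 and 16, replicate 2 of DKO weeks 0 and 8, or replicate 1 of DKO weeks 12 and 16. Between KO and WT the count of 0 became 2 (Gata3 and Trp63) with array weights, only the groups compared, within label numbers 1 to 20 and without the narrow-range arrays, and 0 to 1 with single arrays left out (1 without KO week 12 replicate 1). At week 0 it became 1 (Gata3) within label numbers 1 to 20 and without the narrow-range arrays (15.6% of all genes in each), and for DKO against WT 0 to 1 with single arrays left out. Without the narrow-range arrays 1 regulator was called in DKO over weeks 4 to 16 (Grhl3) and 1 in the difference in change between DKO and WT (Gata3, 3.02% of all genes), both with 1 DKO array at each time. DKO week 16 against week 0 gave 0 to 3 with single arrays left out.

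Signs turned after quantile normalization for Zfp750 against WT (0.13) and for Trp63 (0.18) and Prdm1 (0.071) against KO. With the label number block they turned for Ncstn against WT (0.22) and Prdm1 against KO (0.16). Within label numbers 1 to 20, which holds week 0 alone with 1 DKO array, they turned against WT for Grhl3 (-0.11), Sox9 (0.091) and Krt6b (-0.44), and against KO for Trp63 (0.16), Gata3 (0.056), Sox9 (0.18) and Prdm1 (0.050). Within 22 to 33, week 12 alone, they turned against KO for Trp63 (0.25), Klf4 (-0.24), Gata3 (0.0032) and Prdm1 (0.29). Without the narrow-range arrays they turned for Sox9 against WT (0.30) and KO (0.27) and Gata3 against KO (0.39). The cause was not tested. Over all genes, calls between DKO and KO split 6391 higher and 4838 lower on the deposited values and 2272 and 2594 after quantile normalization, and between KO and WT 72 and 741 against 28 and 92. With the replicate number as a block, 8 regulators were called between DKO and WT and 6 between DKO and KO (Gata3 lost, adjusted p = 0.0519).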
